A study of Homo sapiens with 12 samples.

Results

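NR2F1, NR2F2, TBX5, HEY1 and MYBPHL, a set chosen as atrial identity regulators, were followed in H1 human embryonic stem cells differentiating toward the heart. The genes were found in the table by their symbols and are 5 of its 61806 genes. H1 cells of wild-type genotype, 1 established line, were induced to mesendoderm with the WNT activator CHIR99021. NP-IWP2 cells were then left in static culture and received IWP2, which inhibits WNT ligand secretion. P-DF cells were passaged to new wells on Day 2 and went on in DF medium without IWP2, whereas P-IWP2 cells were passaged on the same day and also received IWP2. All static libraries are NP-IWP2, and none was without IWP2. P-DF thus differs from static cells in both passaging and IWP2, whose parts in a difference cannot be told apart. RNA-seq covered 12 libraries, 2 for every treatment and day (Day 12 or Day 16), with 14885589 to 19176239 reads counted on genes per library. The labels do not say whether libraries of a group came from separate cultures, so p-values measure the spread between these libraries, which may be technical.

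Atrial and ventricular cardiomyocytes arise from related precursors, and retinoic acid, made by ALDH1A2, favors the atrial fate. NR2F1 and NR2F2 (COUP-TFI and COUP-TFII) are orphan nuclear receptors that retinoic acid induces and that hold atrial gene programs in place. TBX5 is a T-box transcription factor needed for the inflow part of the heart and for the atria, and it is also expressed in the left ventricle. HEY1 is a Notch-induced basic helix-loop-helix repressor found in the atria, and its relative HEY2 marks compact ventricular muscle. MYBPHL is not a transcription factor. It encodes myosin-binding protein H-like, a sarcomere protein of the atria and of the conduction system.

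In the table, which follows GRCh38, NR2F1 (ENSG00000175745) lies at chr5:93583222-93594611 on the plus strand and NR2F2 (ENSG00000185551) at chr15:96325938-96340263 on the plus strand. On the minus strand lie TBX5 (ENSG00000089225) at chr12:114353911-114408442 and MYBPHL (ENSG00000221986) at chr1:109292365-109307011. All 5 are protein-coding genes. The antisense genes NR2F1-AS1, NR2F2-AS1 and TBX5-AS1 overlap their namesakes in part. Whether reads were counted by strand is not given in the sources used here, so reads of the stretch that such a pair shares cannot be told apart.

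The promoters of NR2F1, TBX5 and MYBPHL are shown because these genes were called in comparisons below and RefSeq places a start of each at the gene start of the table. Each sequence holds the 250 bases before that start in GRCh38.p14, read along the strand of the gene, and capitals mark matches to the motifs searched. The promoter set used held no entry for HEY1, and none of its 2 starts of NR2F2 lay at the gene start.
NR2F1, chr5:93582972-93583221, plus strand: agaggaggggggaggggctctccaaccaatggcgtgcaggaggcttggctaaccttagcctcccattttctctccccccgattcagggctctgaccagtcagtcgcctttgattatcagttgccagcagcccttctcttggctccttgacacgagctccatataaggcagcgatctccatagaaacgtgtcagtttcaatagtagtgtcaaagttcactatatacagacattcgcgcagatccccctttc
TBX5, chr12:114408443-114408692, minus strand: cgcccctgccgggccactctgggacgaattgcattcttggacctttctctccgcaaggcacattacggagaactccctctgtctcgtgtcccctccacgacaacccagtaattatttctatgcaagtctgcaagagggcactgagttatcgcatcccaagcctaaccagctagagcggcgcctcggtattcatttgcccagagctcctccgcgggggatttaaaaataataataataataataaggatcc
MYBPHL, chr1:109307012-109307261, minus strand: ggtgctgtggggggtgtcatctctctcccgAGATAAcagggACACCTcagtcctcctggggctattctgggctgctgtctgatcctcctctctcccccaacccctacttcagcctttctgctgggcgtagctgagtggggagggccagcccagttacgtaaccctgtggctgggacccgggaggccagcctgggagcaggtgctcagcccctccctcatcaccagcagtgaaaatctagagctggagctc

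Of these 3 promoters, MYBPHL held matches to 2 of the 6 motifs searched on both strands. The GATA letters AGATAA lay 215 to 220 bases before its start, and the T-box core AGGTGT lay on the opposite strand, as ACACCT, 204 to 209 bases before it. The motifs do not overlap. In 34943 RefSeq promoters of the same length, the GATA letters occurred in 9.19% and the T-box core in 9.57%. The nuclear receptor half-site AGGTCA (12.1% of promoters), the RBPJ core TGGGAA (20.9%), the HEY E-box CACGTG (6.32%) and the TATA letters TATAAA (10.8%) were in none of the 3. A match is a description of letters and says nothing of binding.

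One library stood apart and bears on every comparison with P-IWP2. The library labelled P-IWP2 Day 12 replicate 5 had the highest value of all 12 libraries for each of the 5 genes. Its NR2F1 was at 55.64 FPKM, a read count scaled by exon length and by the total of the library, against at most 0.97 elsewhere, and its NR2F2 was at 46.38 against at most 4.05. The summed FPKM of 10 cardiomyocyte markers, led by TNNC1 and MYBPC3, was 622 in that library and 963 to 3529 in the other 11. RYR2 went against this sum, at 47.13 FPKM in that library and at most 41.38 elsewhere. No other marker of the list was highest there. The sum of 10 epicardial and mesothelial markers, led by KRT19 and TBX18 over the 12 libraries, was 215 against 15.2 to 149. TBX18 (106 FPKM), SEMA3D (57.1) and UPK1B exceeded all other libraries in it. TCF21 (21.26 against 21.1) and WT1 (6.36 against 6.14) did so narrowly. KRT19 (15.8, against 24.3 in its partner, replicate 6), BNC1, UPK3B, MSLN and ALDH1A2 did not. The 10 fibroblast markers, led by COL3A1 (457 FPKM) and COL1A1 (176), summed to 773. That sum lay within the 28.8 to 1434 of the other 11 and above the 48.8 of replicate 6. PDGFRA exceeded all other libraries in it (37.72 against at most 22.01). LUM (0.55), DCN (0.26) and THY1 (1.15) were far below their highest values elsewhere (182.75, 10.48 and 8.53, all in static libraries). POSTN (0.7) was below the 1.02 of replicate 6. No marker of these 3 lists was at 0 in it. Results are therefore given with and without replicate 5. In a bulk library, fewer cells of a type and less RNA per cell cannot be told apart.

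**Figure D1:**
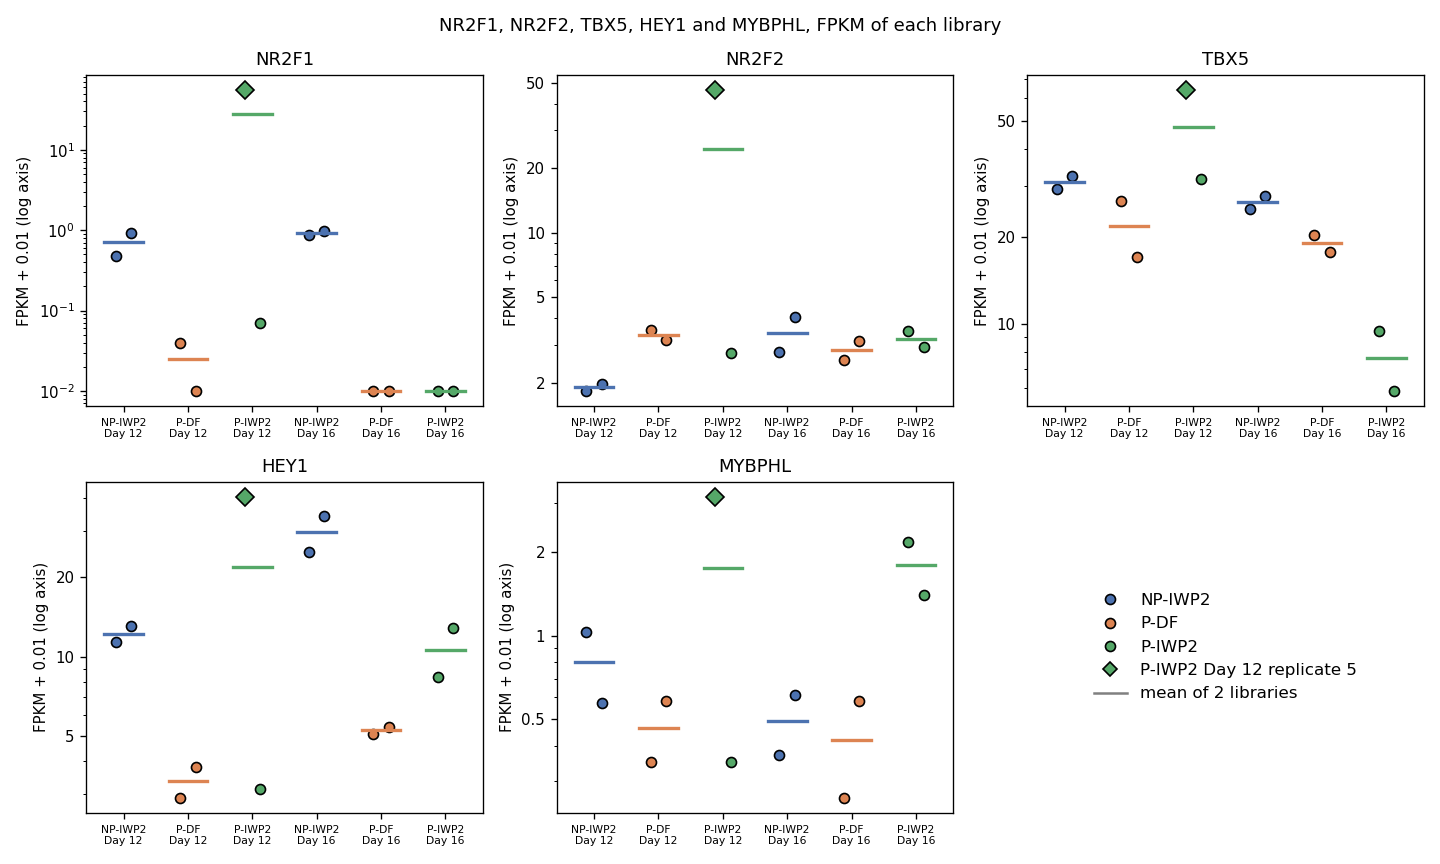
FPKM + 0.01 of NR2F1, NR2F2, TBX5, HEY1 and MYBPHL on a log axis in the 12 libraries, by treatment and day; points are libraries, bars are means of 2 libraries, and the diamond is P-IWP2 Day 12 replicate 5. The diamond is the highest point in every panel, NR2F1 is at or near 0 in the other passaged libraries, and TBX5 is lowest in P-IWP2 on Day 16 (9.45 and 5.87).

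NR2F1 was low in static cells and at the edge of detection in passaged cells, other than replicate 5. In NP-IWP2 it was at 0.47 and 0.92 FPKM on Day 12 and at 0.86 and 0.97 on Day 16. In P-DF it was at 0.03 and 0 on Day 12 and at 0 in both libraries of Day 16. In P-IWP2 it was at 55.64 and 0.06 on Day 12 and at 0 in both libraries of Day 16. All 4 static libraries thus lay above all 4 P-DF libraries. A count of 0 allows up to 3 counts, which for NR2F1 are 0.0357 to 0.0460 FPKM, and such limits and intervals cover counting error only.

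Over both days, the static libraries held 243 NR2F1 reads and the P-DF libraries 2, a ratio of CPM (counts scaled to the library total) of 114 with an exact 95% counting interval of 31.2 to 945. NR2F1 fell in P-DF over both days (edgeR adjusted p = 7.66e-05, 4 libraries against 4). On Day 12 the ratio was 46.4 (12.5 to 388) against P-DF. On Day 16 NR2F1 was at least 22.7-fold higher in NP-IWP2 than in P-DF and at least 24.9-fold higher than in P-IWP2, with 3 counts per library as the floor. P-IWP2 replicate 6 of Day 12 had 4 reads, and the static libraries of that day were 12.4-fold higher (4.71 to 46.5). NR2F1-AS1 had 7 to 18 reads in each static library, at most 1 in each P-DF library and 255 in replicate 5. It was called lower in P-DF over both days (adjusted p = 0.00100), and reads of the stretch it shares with NR2F1 cannot be told apart.

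NR2F2 lay between 1.82 and 4.05 FPKM in every library other than replicate 5. In NP-IWP2 it was at 1.82 and 1.97 FPKM on Day 12 and at 2.76 and 4.05 on Day 16. In P-DF it was at 3.5 and 3.17 on Day 12 and at 2.54 and 3.12 on Day 16. In P-IWP2 it was at 46.38 and 2.75 on Day 12 and at 3.49 and 2.91 on Day 16. The lowest group was NP-IWP2 Day 12, which lay below the other groups without overlap, while the groups above it overlapped with their neighbors in the order of means. Over both days the P-DF difference was 0.42 ± 0.20 on the log2 scale (adjusted p = 0.137). It was 0.60 without NP-IWP2 Day 16 replicate 2 (adjusted p = 0.0248) and 0.59 without P-DF Day 16 replicate 3 (adjusted p = 0.0477). NR2F2-AS1 was at 0.19 FPKM or less outside replicate 5, where it was at 1.76. NR2F6, a further member of the family, was at 17.0 to 23.9 FPKM in the group means and differed by -0.09 ± 0.07 in P-DF (adjusted p = 0.352).

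TBX5 had the highest FPKM, a level per length, of the 5 genes in 9 of 12 libraries and fell in P-IWP2 cells by Day 16. In NP-IWP2 it was at 29.32 and 32.3 FPKM on Day 12 and at 24.96 and 27.71 on Day 16. In P-DF it was at 26.66 and 16.98 on Day 12 and at 20.24 and 17.7 on Day 16. In P-IWP2 it was at 64.21 and 31.54 on Day 12 and at 9.45 and 5.87 on Day 16. The P-IWP2 libraries of Day 16 were the lowest 2 of the 12 and overlapped with no other group. TBX5-AS1 followed the same order at the ends, with 11.41 FPKM in replicate 5 and 0.47 and 0.33 in P-IWP2 on Day 16.

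On Day 16, TBX5 averaged 7.66 ± 2.53 FPKM (SD, n = 2) in P-IWP2 and 26.3 ± 1.94 in NP-IWP2. The log2 fold change was -1.52 ± 0.30 (SE) with an edgeR adjusted p of 0.0107, and -1.51 ± 0.20 (adjusted p = 8.1e-05) without replicate 5 of Day 12. TBX5 was the one of the 5 genes called in this comparison, in which 17.1% of 19505 genes tested were called. The adjusted p was 0.0629 without NP-IWP2 Day 16 replicate 2, and without P-IWP2 Day 16 replicate 6 the change was -1.27 with an adjusted p of 0.0923. In P-DF the difference on Day 16 was -0.24 ± 0.29 (adjusted p = 0.610), and over both days it was -0.34 ± 0.13 (adjusted p = 0.0757). The latter was called under 5 of 13 alternatives, with values of -0.50 to -0.35 and adjusted p of 0.00282 to 0.0226. These were limma at both pseudocounts, no filter on low counts, total counts in place of TMM, and leaving out P-DF Day 12 replicate 3 (-0.47, adjusted p = 0.0179). Both treatments were compared with the same static libraries.

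TBX5 also changed with time in P-IWP2. From Day 12 to Day 16 it fell by 2.21 ± 0.31 on the log2 scale (adjusted p = 0.00224), and the change was -1.75 ± 0.23 when replicate 5 was left out (adjusted p = 0.000188). In that comparison 27.0% of 19505 genes were called with all libraries. The change was -0.11 ± 0.29 in NP-IWP2 and 0.05 ± 0.29 in P-DF, and neither passed the test (adjusted p = 0.867 and 0.934). In a model of the 4 P-IWP2 libraries alone, the fall kept its size (-2.24) and missed the threshold (adjusted p = 0.122).

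HEY1, at chr8:79762371-79767857 on the minus strand, was high in static cells and low in P-DF (its identifier is ENSG00000164683). In NP-IWP2 it was at 11.35 and 13.09 FPKM on Day 12 and at 24.99 and 34.31 on Day 16. In P-DF it was at 2.9 and 3.8 on Day 12 and at 5.07 and 5.4 on Day 16. In P-IWP2 it was at 40.53 and 3.12 on Day 12 and at 8.38 and 12.81 on Day 16. Every P-DF library lay below every static library, and P-IWP2 on Day 16 lay between P-DF and NP-IWP2 of that day without overlap.

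Over both days HEY1 fell in P-DF by 2.04 ± 0.14 on the log2 scale (edgeR adjusted p = 7.29e-06). HEY1 and NR2F1, both lower, were the 2 of 5 genes called in this comparison, where 34.1% of 18871 genes were called, and replicate 5 has no part in it. In the model of all 12 libraries the difference on each day was as large, -1.78 ± 0.80 on Day 12 and -2.26 ± 0.80 on Day 16, and missed the threshold (adjusted p = 0.233 and 0.0862). Without replicate 5 the standard errors were 0.21 on both days and HEY1 was called on both (adjusted p = 4.79e-05 and 2.73e-06).

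For P-IWP2 the direction of HEY1 on Day 12 turned on replicate 5. The difference from static cells was 0.72 ± 0.76 with it (adjusted p = 0.835) and -1.88 ± 0.27 without it (adjusted p = 0.000436). On Day 16 it was -1.19 ± 0.77 in the model of 12 libraries (adjusted p = 0.309) and -1.18 ± 0.20 without that library (adjusted p = 0.000419). With time, HEY1 rose in NP-IWP2 by 1.38 ± 0.20 and in P-DF by 0.90 ± 0.22 without replicate 5 (adjusted p = 0.000522 and 0.00704). With all 12 libraries these changes were also 1.38 and 0.90 and were not called (adjusted p = 0.359 and 0.485).

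MYBPHL had the lowest counts after NR2F1, between 7 and 87 reads per library. In NP-IWP2 it was at 1.02 and 0.56 FPKM on Day 12 and at 0.36 and 0.6 on Day 16. In P-DF it was at 0.34 and 0.57 on Day 12 and at 0.25 and 0.57 on Day 16. In P-IWP2 it was at 3.16 and 0.34 on Day 12 and at 2.17 and 1.39 on Day 16. Static and P-DF libraries overlapped on both days, and both P-IWP2 libraries of Day 16 lay above all libraries other than replicate 5.

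On Day 16 MYBPHL averaged 1.78 ± 0.55 FPKM (SD, n = 2) in P-IWP2 and 0.480 ± 0.170 in NP-IWP2, a log2 difference of 2.17 ± 0.82 that missed the threshold (edgeR adjusted p = 0.0981). Without replicate 5 it was 2.17 ± 0.45 and was called (adjusted p = 0.00232). In P-DF the differences were -0.70 ± 0.85 on Day 12 and 0.03 ± 0.88 on Day 16 (adjusted p = 0.667 and 0.985). MYBPHL and TBX5 thus differed from static cells in opposite directions in P-IWP2 on Day 16. Of the relatives of MYBPHL, MYBPC3, the cardiac myosin-binding protein C, rose in P-DF over both days by 0.83 ± 0.19 (adjusted p = 0.00935). MYBPH was too low to be tested, with at most 5 reads per library.

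**Figure D2:**
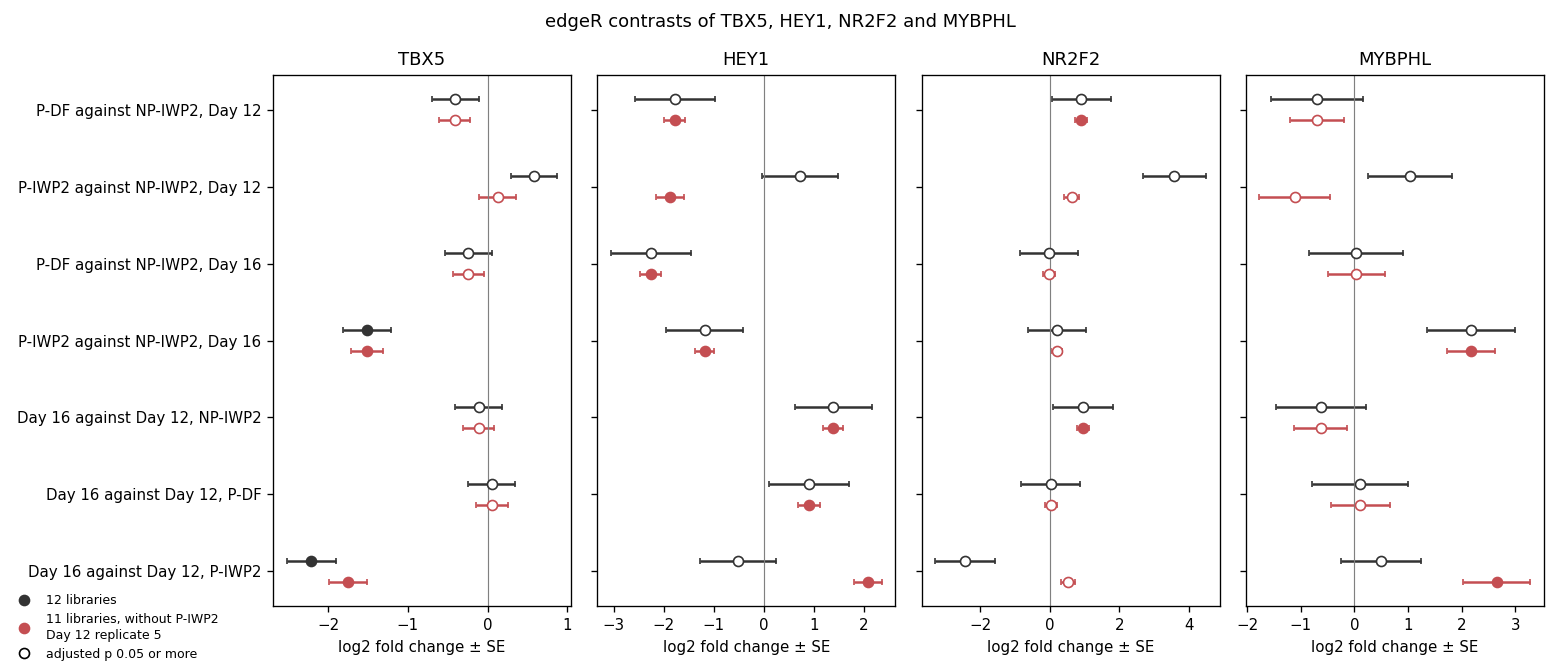
log2 fold changes ± SE of TBX5, HEY1, NR2F2 and MYBPHL in 7 comparisons by edgeR, with all 12 libraries in black and without P-IWP2 Day 12 replicate 5 in red; filled points have an adjusted p under 0.05. On Day 16 TBX5 is lower in P-IWP2 in both fits (-1.52 and -1.51), whereas HEY1 and MYBPHL keep their values and are called in the red fit only.

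Counted together, none of the 5 genes was called in P-DF on Day 12, where 4.01% of 19505 genes were called, or on Day 16, where 15.3% were. At an unadjusted p under 0.05, 4229 and 6218 of all genes passed on these days. Without replicate 5, HEY1 and NR2F1 were lower and NR2F2 was higher (0.90 ± 0.17, adjusted p = 0.00199) in P-DF on Day 12, with 21.9% of 20518 genes called, and HEY1 and NR2F1 were lower on Day 16, with 32.4% called. For P-IWP2 against static cells, none was called on Day 12 (1.66% of all genes) or over both days (2.57%). Without replicate 6, P-IWP2 on Day 12 is replicate 5 alone, the library that was set apart as highest in these genes. Its log2 differences from static cells were NR2F1 6.18, NR2F2 4.47, TBX5 0.91, HEY1 1.59 and MYBPHL 1.84. The P-DF values of HEY1, NR2F1 and NR2F2 on Day 12 were then -1.78, -5.30 and 0.90, as without replicate 5. With replicate 5 left out instead, replicate 6 alone stood for P-IWP2 on Day 12, and HEY1 and NR2F1 differed by -1.88 and -3.52. Over both days these genes were called lower (-1.45 and -5.24), with 24.8% of 20027 genes called. On Day 16, 4 of 5 were then called, with HEY1, NR2F1 and TBX5 lower and MYBPHL higher, against 34.8% of all genes.

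Passaged cells with and without IWP2 were compared directly. Over both days edgeR called 0 of 17999 genes, 931 genes had an unadjusted p under 0.05, and DESeq2 called 2. NR2F1 did not pass the filter on low counts. Within Day 16 and without replicate 5, a comparison added after the data were seen, TBX5 was lower (-1.27 ± 0.20, adjusted p = 0.00750) and HEY1 and MYBPHL were higher in P-IWP2 than in P-DF (1.08 ± 0.20 and 2.13 ± 0.47, adjusted p = 0.0170 and 0.0312). NR2F2 differed by 0.22 ± 0.17 (adjusted p = 0.567), and 2.49% of 20518 genes were called. With all 12 libraries the same differences were -1.27, 1.07 and 2.14 and none was called.

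The days were also compared within each treatment. With all 12 libraries, no gene of the 5 was called between the days in NP-IWP2 (1.98% of all genes called) or in P-DF (13.6%), and TBX5 and NR2F1 were lower on Day 16 in P-IWP2. The call of NR2F1 there (adjusted p = 0.0353) was lost without any 1 of 9 libraries, at adjusted p of 0.0587 to 0.161, and without replicate 5 it was 0.0973. Without replicate 5, HEY1 rose in all 3 treatments, and NR2F2 rose in NP-IWP2 by 0.95 ± 0.17 (adjusted p = 0.00242), with 17.1% of all genes called. HEY1 and MYBPHL rose in P-IWP2 by 2.08 ± 0.28 and 2.65 ± 0.63 (adjusted p = 0.000185 and 0.00835), with 23.7% called, and TBX5 fell. In P-DF, HEY1 was then the 1 of the 5 genes called (29.2% of all genes). Each P-IWP2 value without replicate 5 rests on 1 library of Day 12, which is assumed to vary like the other groups.

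An interaction term tested whether the difference from static cells changed from Day 12 to Day 16. For P-DF none of the 5 genes was called (0.482% of 19505 genes; 2425 had an unadjusted p under 0.05 and DESeq2 called 501). Without replicate 5, NR2F2 was called (-0.92 ± 0.24, adjusted p = 0.0330), with 7.62% of all genes called. Its P-DF difference was 0.90 on Day 12 and -0.02 on Day 16. For P-IWP2, TBX5 was called (-2.10 ± 0.42, adjusted p = 0.0437), with 1.84% of all genes called. That call was lost without any 1 of 8 other libraries, at values of -2.40 to -1.85 (adjusted p = 0.0643 to 0.210). Without replicate 5, TBX5 and MYBPHL were called (-1.64 ± 0.31 and 3.28 ± 0.80, adjusted p = 0.00531 and 0.0234), with 7.89% called.

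The sums of fibroblast, hepatic and epicardial markers, like NR2F1 and HEY1, were higher in static than in P-DF libraries. A marker of the epicardial list, SEMA3D, had its highest value outside replicate 5 in P-DF (10.88 FPKM, Day 12 replicate 3). The 10 fibroblast markers summed to 816 to 1434 FPKM in static libraries and to 28.8 to 46.0 in P-DF. The 10 hepatic markers, led by AFP and APOA1, summed to 430 to 885 in static libraries and to 6.04 to 14.9 in P-DF, where AHSG and HNF4A were at 0 on both days. In replicate 5, where NR2F1 and HEY1 were highest, the hepatic sum was 8.49. The 10 epicardial markers summed to 106 to 149 in static libraries and to 20.6 to 32.2 in P-DF, and the 10 cardiomyocyte markers to 963 to 1479 and to 1457 to 3084. The endothelial sums of both treatments overlapped on Day 12 (193 to 210 in static and 163 to 226 in P-DF libraries), and on Day 16 they were 54.2 to 54.5 and 14.8 to 16.9. In P-IWP2 replicate 6 of Day 12, KDR was at 232.51 FPKM of a sum of 236. Except for KDR, every endothelial marker had its highest value outside replicate 5 in a static library of Day 12. SOX17 was at 0 in P-DF on that day. The part of these markers in the differences of NR2F1 and HEY1 was not tested.

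In P-IWP2 on Day 16, where TBX5 was lowest and MYBPHL high, the cardiomyocyte sum was 2952 to 3529, the highest of the 6 groups. The fibroblast sum was 41.4 to 44.7 with DCN at 0, the epicardial sum 15.2 to 17.8 with TCF21 at 0, and the hepatic sum 16.2 to 20.1 with APOB, FGB and HNF4A at 0. The 10 endothelial markers, led by KDR and TEK, summed to 12.3 to 14.7 there, with PECAM1, ERG and SOX17 at 0. In static libraries of that day they summed to 54.2 to 54.5. The 8 endoderm and epithelial markers, led by KRT18 and KRT8, summed to 210 to 323 in P-IWP2 on Day 16, with FOXA2 and SOX17 at 0. In static libraries of that day they summed to 238 to 301. KRT8 and KRT18 were highest of all libraries in P-IWP2 Day 16 replicate 6 (147.36 and 172.67 FPKM). CDH1, EPCAM, FOXA1, FOXA2, GATA3 and SOX17 had their highest values outside replicate 5 of Day 12 in static libraries. The part of these markers in the differences of TBX5 and MYBPHL was not tested.

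HEY1 and HEY2 were set side by side, since the genes are taken as marks of atrial and ventricular muscle. In bulk libraries the ratio is not one of muscle alone, and the part of other cells in it was not tested. HEY1 was highest in P-IWP2 Day 12 replicate 5 (40.53 FPKM), where the sum of cardiomyocyte markers was lowest (622). The log2 ratio of HEY1 to HEY2 (FPKM + 0.1) was 1.03 and 1.10 in NP-IWP2 on Day 12 and 1.06 and 1.16 on Day 16. In P-DF it was -1.56 and -0.60 on Day 12 and -1.95 and -1.76 on Day 16. In P-IWP2 it was 2.38 and -1.65 on Day 12 and -0.29 and 1.46 on Day 16. HEY1 exceeded HEY2 in all 4 static libraries and HEY2 exceeded HEY1 in all 4 P-DF libraries, while P-IWP2 was split on both days. HEY2 rose in P-DF over both days by 0.57 ± 0.14 (edgeR adjusted p = 0.0111), against the fall of 2.04 in HEY1.

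**Figure D3:**
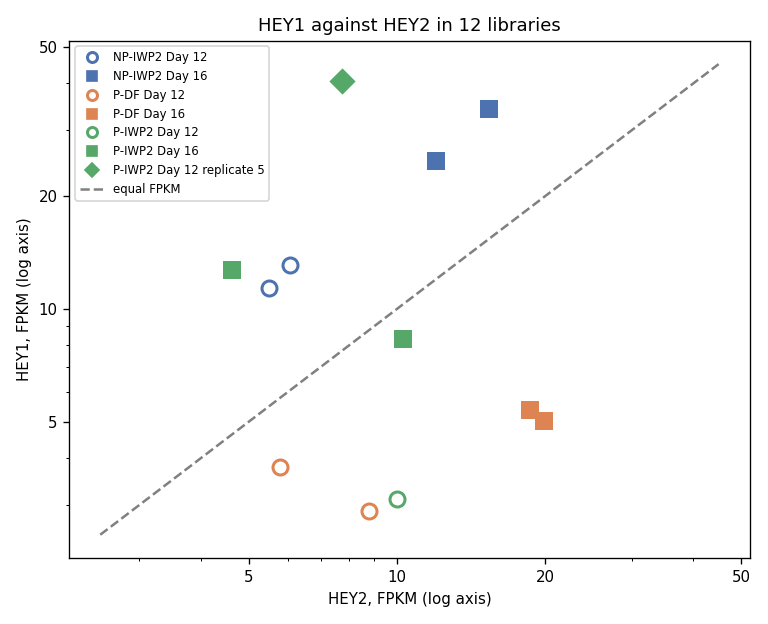
HEY1 against HEY2 in FPKM, both on log axes, in the 12 libraries; circles are Day 12, squares Day 16, the diamond is P-IWP2 Day 12 replicate 5, and the dashed line marks equal FPKM. Static libraries lie above the line (log2 ratios 1.03 to 1.16) and P-DF libraries below it (-1.95 to -0.60).

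The Notch pathway, which induces HEY1, held 18 tested genes of 19 beside HEY1. In P-DF over both days 11 were lower and 2 higher, with a median log2 fold change of -1.29 against -0.02 over all 18871 genes, of which 34.1% were called. The ligand JAG1 fell by 1.43 ± 0.10 (adjusted p = 1.17e-05), from group means of 26.5 to 33.8 FPKM in static cells to 7.30 to 13.8 in P-DF. The receptor NOTCH1 fell by 1.52 ± 0.14 (adjusted p = 4.73e-05). HEYL, a further Notch target of the HEY family, fell by 3.88 ± 0.16 (adjusted p = 3.53e-07), and the endothelial ligand DLL4 and the glycosyltransferase MFNG, both with few reads in P-DF, were lower as well. JAG2 rose by 0.70 ± 0.09 (adjusted p = 0.000453). In P-IWP2 over both days none of the 18 was called with all libraries (2.57% of all genes called), and 7 were lower and 1 higher without replicate 5 (24.8% called).

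Atrial genes outside the set moved in both directions in P-DF. Of 12 such genes, 3 were higher and 4 lower over both days, with a median of -0.20 against -0.02 over all genes, of which 34.1% were called. SLN, sarcolipin, had 176 to 526 reads in each static library and 0 in every P-DF library. The atrial growth factor BMP10 and the potassium channel gene KCNJ3 fell, with changes of -4.32 ± 0.45 and -3.75 ± 0.43 (adjusted p = 0.000103 and 0.000178). MYL4, the atrial essential light chain, rose by 0.98 ± 0.16, KCNJ5 by 0.81 ± 0.19 and PAM by 0.71 ± 0.18 (adjusted p = 0.00145, 0.00928 and 0.0145). The atrial light chain MYL7 and the natriuretic peptide NPPA differed by 0.54 ± 0.29 and 0.86 ± 0.57 (adjusted p = 0.179 and 0.276).

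Of 6 ventricular counterparts, 5 were higher in P-DF over both days and HAND1 was lower (-0.46 ± 0.11, adjusted p = 0.0121), with a median of 1.02 (34.1% of all genes called). MYL2, the ventricular regulatory light chain, rose by 5.95 ± 0.90, MYH7 by 1.85 ± 0.32 and the transcription factor IRX4 by 1.05 ± 0.17 (adjusted p = 0.000929, 0.00195 and 0.00145). In P-IWP2 on Day 16, where TBX5 was lower, 3 of the 12 atrial genes were higher and 4 lower than in static cells, with a median of -0.38 against -0.03 over all genes, of which 17.1% were called. NPPA, MYL7 and PAM were higher, by 3.40 ± 0.78, 1.92 ± 0.32 and 1.40 ± 0.22 (adjusted p = 0.0188, 0.00515 and 0.00401). BMP10, the connexin gene GJA5, the atrial myosin heavy chain MYH6 and SLN were lower (adjusted p = 0.0446, 0.0311, 0.0447 and 0.0435). BMP10 and MYH6 differed by -1.96 ± 0.57 and -1.56 ± 0.45, while GJA5 and SLN had at most 2 reads in each P-IWP2 library of that day. Of the 6 ventricular counterparts MYL2 was called, higher by 5.95 ± 1.2 (adjusted p = 0.0126).

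**Figure D4:**
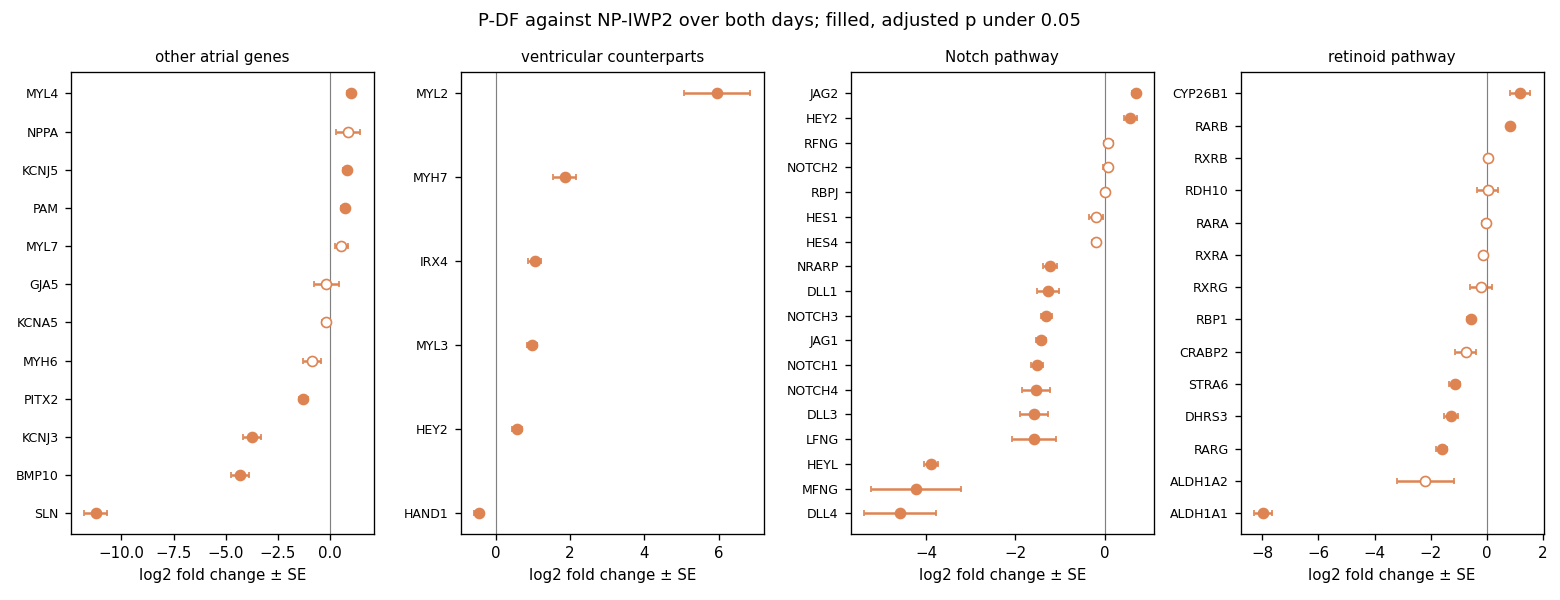
log2 fold change ± SE of P-DF against NP-IWP2 over both days for other atrial genes, ventricular counterparts, Notch pathway and retinoid pathway genes; filled points have an edgeR adjusted p under 0.05. In the Notch panel 11 genes are lower and 2 higher, and the fitted values of SLN and ALDH1A1, with 0 to 2 reads in P-DF libraries, are no measure of size.

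The retinoid pathway, upstream of NR2F1 and NR2F2, had 14 tested genes of 18, of which 5 were lower and 2 higher in P-DF over both days (median -0.39, with 34.1% of all genes called). ALDH1A2, the retinaldehyde dehydrogenase of the embryo, averaged 0.03 to 0.63 FPKM across groups and differed by -2.19 ± 1.00 over both days (adjusted p = 0.123). It had 3 and 5 reads in NP-IWP2 on Day 12 and 72 and 105 on Day 16, a rise of 4.51 ± 0.63 (adjusted p = 0.0148). On Day 16 it had 1 and 4 reads in P-DF and also in P-IWP2, and it was called lower than in static cells in both (adjusted p = 0.00239 and 0.00233). The interactions with the day were called too (adjusted p = 0.0399 for P-DF and 0.0119 for P-IWP2). ALDH1A1 had 102 to 435 reads in static libraries and at most 2 in P-DF libraries. The receptor gene RARG and the reductase DHRS3 fell, with changes of -1.61 ± 0.20 and -1.28 ± 0.26 (adjusted p = 0.000287 and 0.00470). The receptor gene RARB and the retinoic acid hydroxylase CYP26B1 rose by 0.84 ± 0.11 and 1.18 ± 0.36 (adjusted p = 0.000402 and 0.0304).

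Of 13 partners and T-box relatives of TBX5, 5 were lower and 2 higher in P-DF over both days (median -0.18, with 34.1% of all genes called). The partner NKX2-5 rose by 0.72 ± 0.08 and TBX3 by 0.33 ± 0.10 (adjusted p = 0.000196 and 0.0289), and the partner GATA4 differed by -0.17 ± 0.07 (adjusted p = 0.0748). TBX18, a T-box gene of the epicardium and the venous pole, fell by 9.64 ± 0.31 (adjusted p = 1.81e-07). It averaged 30.6 and 36.8 FPKM in static cells on the 2 days and 0.02 and 0.05 in P-DF. ISL1 fell by 1.52 ± 0.12 (adjusted p = 2.39e-05), and the change of TBX4 was -4.39 ± 0.55 (adjusted p = 0.000335). TBX5-AS1 fell in P-DF by 1.00 ± 0.19 (adjusted p = 0.00362).

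The genes whose levels followed each gene most closely over the 12 libraries were named by Pearson's r of log2(CPM + 1), as a description in which replicate 5 weighs heavily. NR2F1 was closest to KLRK1-AS1 (0.991), NR2F1-AS1 (0.987) and AMER2 (0.980), and NR2F2 to CHMP2B (0.982), SFRP1 (0.956) and RAB6D (0.953). TBX5 was closest to ZNF503, CDHR3 and GRAMD1B (0.961, 0.961 and 0.960), HEY1 to ZFPM2 (0.976), PLEKHA4 (0.975) and SOX9 (0.971), and MYBPHL to SH3KBP1 (0.935), GABARAPL1 (0.883) and ANKRD53 (0.868). Without replicate 5, the 3 closest genes stayed the same for TBX5, with r of 0.955 to 0.980, and 5 of the 15 stayed in all. Among the 5 genes themselves, NR2F1 and NR2F2 had an r of 0.77 over 12 libraries and -0.46 over 11, HEY1 and NR2F1 had 0.69 and 0.71, and TBX5 and MYBPHL had -0.25 and -0.81. These libraries share treatments and days, so the points are not independent.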

How the data were processed

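RNA-seq of H1 cells was analysed from 1 deposited table. Per the labels, RNA was amplified as cDNA with a low-input kit, and a library kit for long reads is named. The submitters' processing notes name Cutadapt 1.9.1, HISAT2 2.0.1, HTSeq 0.6.1, DESeq2 and hg38. The table holds the read counts of the authors per Ensembl gene, without normalization, and the FPKM that the authors made from them. All 741672 FPKM values lay within 0.02 of the count divided by exon length and library total. Columns of the authors' comparisons were absent, and 20417 of 61806 genes had no symbol.

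Counts were tested with edgeR 4.0.16 in R 4.3.3 (TMM, filterByExpr, quasi-likelihood test, Benjamini-Hochberg over all genes tested, threshold 0.05). All 12 libraries entered 1 model of 6 groups, which left 19505 genes. Comparisons over both days were fitted to 8 libraries, with terms for treatment and day. The 5 genes and the lists beside them were chosen with earlier results of these data known. Named genes were the 5, their antisense genes, 11 fixed genes (HEY2, IRX4, NPPA, MYL7, ALDH1A2, JAG1, NOTCH1, GATA4, NKX2-5, MYBPH and NR2F6), the 3 largest called rises and falls over both days of each list, the 3 genes most like each of the 5, and the 2 most abundant markers of each cell type. DCN, TCF21, AHSG, APOB, FGB, HNF4A, FOXA2, SOX17, PECAM1 and ERG were named because they were at 0. Further markers were named to show which genes of a list followed its sum. One of the marker lists is not reported here. Alternatives were DESeq2 1.42.0, limma 3.58.1 on log2(FPKM + 0.1 or 1), total counts, no filter, only the groups compared, a replicate block, TPM, and each library left out in turn. Scripts were tested on simulated counts. Promoter sequences came from RefSeq (GRCh38.p14).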

Additional observations from a re-analysis of the deposited data

Results flagged for a closer look

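The change of TBX5 in P-IWP2 relative to static culture differed between Day 12 and Day 16. The interaction of P-IWP2 and day was -2.10 ± 0.42 on the log2 scale (edgeR adjusted p = 0.0437), and 1.84% of 19505 genes were called in it. TBX5 was higher than in static cells in 1 of 2 P-IWP2 libraries on Day 12 (64.21 FPKM in replicate 5 and 31.54 in replicate 6, against 29.32 and 32.3) and lower in both on Day 16. Without replicate 5 the interaction was -1.64 ± 0.31 (adjusted p = 0.00531). It ranged from -2.43 to -1.64 when each library was left out, and the adjusted p rose to between 0.0643 and 0.210 without any 1 of 8 libraries (both static libraries of Day 12, all 6 libraries of Day 16). For P-DF the interaction of TBX5 was 0.17 ± 0.41 (adjusted p = 0.918).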

How the results depend on the processing

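Of 999 values of the 5 genes under alternatives, 836 kept their direction and side of the threshold, 92 passed it newly, 22 no longer passed it and 49 changed direction. The falls of HEY1 and NR2F1 in P-DF over both days were called under all 13 and all 11 of their alternatives, with HEY1 between -2.19 and -1.92 on the log2 scale. No cause of the changes below was tested. The depth limits NR2F1 and MYBPHL most, and 2 libraries per group limit the precision of every value.

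Without the filter on low counts the number of the 5 genes called was 2, 1 and 4 between the days (for NP-IWP2, P-DF and P-IWP2 in this order), 3, 2 and 4 for P-DF on Day 12, Day 16 and both days, 4 for P-IWP2 on each day, 4 for P-IWP2 against P-DF, and 1 and 4 for the interactions of P-DF and P-IWP2 with the day. With only the groups compared it was 2, 1 and 0 between the days, 3 for P-DF on either day and 4 for P-IWP2 on Day 16. With DESeq2 it was 1 for P-DF on Day 16, 1 and 2 for P-IWP2 on Day 12 and Day 16, and 2 for the interaction of P-IWP2. With limma at either pseudocount it was 1 between the days in P-IWP2. Within Day 16 and without P-IWP2 Day 12 replicate 5 it was 3 for P-IWP2 against P-DF. With each library left out it ranged from 0 to 2, 0 to 1 and 1 to 4 between the days, from 0 to 3, 0 to 2 and 2 to 3 for P-DF on Day 12, Day 16 and both days, from 0 to 5, 0 to 4 and 0 to 2 for P-IWP2, from 0 to 1 for P-IWP2 against P-DF, and from 0 to 1 and 0 to 4 for the interactions. With a pseudocount of 1 the mean log2 ratio of HEY1 to HEY2 was 0.96 in NP-IWP2 on Day 12 and -1.70 in P-DF on Day 16. Of the 15 genes of like pattern, 5 stayed without replicate 5. The number of all genes called moved with the settings as well. For P-DF on Day 16 it was 2975 of 19505 in the model of 12 libraries. It was 4671 of 40332 without the filter and 6927 of 17285 with only the groups compared. Between the days in P-IWP2 these numbers were 5270 of 19505, 6411 of 40332 and 0 of 17080. The counts of the 5 genes therefore do not set them apart from other genes.

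Libraries of equal replicate number on Day 12 and Day 16 were not paired, since the correlations of their deviations were 0.155 for NP-IWP2, -0.0042 for P-DF and -0.025 for P-IWP2. With a replicate block, 2 genes in place of 1 were called in the interaction of P-IWP2, and HEY1 between the days in P-IWP2 was 0.25 in place of -0.53.

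Scaled by total counts and not by TMM, all genes had a median of -0.25 and -0.31 for P-DF and P-IWP2 on Day 16 (-0.02 and -0.03 with TMM) and -0.28 and -0.49 between the days in P-DF and P-IWP2 (-0.02 and -0.08 with TMM). Uncalled values then changed direction: between the days in P-DF, NR2F2 to -0.24, TBX5 to -0.20 and MYBPHL to -0.16, MYBPHL in P-DF on Day 16 to -0.21, and NR2F2 in P-IWP2 on Day 16 to -0.088. With limma at a pseudocount of 0.1 or 1, NR2F2 and TBX5 between the days in P-DF were -0.23 and -0.17 or -0.18 and -0.16, HEY1 in P-IWP2 on Day 12 was -0.10 or -0.012, and NR2F2 in P-IWP2 on Day 16 was -0.068 or -0.057. NR2F1 in P-IWP2 over both days was -1.68 with DESeq2 and -0.69 with limma at 0.1. For P-IWP2 against P-DF on Day 12 alone, TBX5 was 0.99, and without replicate 5 TBX5 was 0.54, NR2F2 -0.27, HEY1 -0.10 and MYBPHL -0.40.

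The other changes of direction came from leaving out 1 library. With each left out in turn, the changes between the days in P-DF ranged from -0.14 to 0.18 for NR2F2, -0.27 to 0.43 for TBX5 and -0.63 to 0.58 for MYBPHL, and those in P-IWP2 from -3.32 to 0.52 for NR2F2, -1.38 to 2.08 for HEY1 and -0.30 to 2.65 for MYBPHL. In P-DF on Day 16, NR2F2 ranged from -0.23 to 0.21 and MYBPHL from -0.71 to 0.50. In P-IWP2 on Day 12, NR2F1 ranged from -3.52 to 6.18, HEY1 from -1.88 to 1.59 and MYBPHL from -1.11 to 1.84, and NR2F2 on Day 16 from -0.0063 to 0.43. Over both days in P-IWP2, NR2F1 ranged from -5.24 to 3.51 and HEY1 from -1.45 to 0.14, and against P-DF TBX5 ranged from -0.56 to 0.27. In the interactions, TBX5 ranged from -0.16 to 0.54 and MYBPHL from -0.0064 to 1.20 for P-DF, and HEY1 from -2.77 to 0.69 for P-IWP2.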
